A study of Caenorhabditis elegans with 48 samples.

Results

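The regions described here are the stretches of the Caenorhabditis elegans autosome arms at which a tagged Rb/E2F protein or the heterochromatin protein HPL-2 had a ChIP-seq peak. Overlapping peaks (1 bp or more) of 23 libraries were merged into 24318 regions, and a region was placed on an arm by its midpoint: on II below 4.9 Mb or above 12.0 Mb, on III below 3.7 or above 10.3 Mb, on IV below 3.9 or above 13 Mb, and on V below 5.9 or above 16.5 Mb (WormBase WS180). This gave 7715 regions on the 8 arms, and 9228 regions on the centres of the same 4 chromosomes served for comparison. The arms made up 34.0 Mb and the centres 33.4 Mb, with the last deposited peak taken as the end of each chromosome.

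The 23 anti-GFP libraries came from whole animals of 11 strains, each 1 integrated transgenic line that carried a GFP:FLAG-tagged factor and an unc-119 rescue fragment in the unc-119(ed3) background. Germline binding was measured in young adults with the pie-1 promoter for EFL-1 (YL445), DPL-1 (YL390) and LIN-35 (YL402), and with the mex-5 promoter for a further LIN-35 line (YL468). Binding in L1 larvae was measured with the ges-1 promoter, active in the intestine, for EFL-1 (YL418), DPL-1 (YL448), LIN-35 (YL398) and HPL-2 (YL416), and with each factor's own promoter, called somatic here, for EFL-1 (YL424), DPL-1 (YL425) and LIN-35 (YL409). Every strain had 2 libraries except intestinal HPL-2 with 3, and germline against larval strains differed in stage as well as in tissue, so that these cannot be told apart. Input DNA of the same strain and replicate was among the samples for 22 of the 23 libraries, the exception being replicate 3 of HPL-2, which also is not among the HPL-2 replicates in the study's list of libraries used. In chromatin of whole animals, binding in fewer nuclei and weaker binding in each nucleus cannot be told apart either.

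EFL-1 and DPL-1 are the subunits of an E2F/DP heterodimer that recognises DNA, LIN-35 is the Rb-like pocket protein that associates with it, and HPL-2 is a homolog of HP1, which binds methylated histone H3. The arms of C. elegans autosomes differ from the centres in being richer in repeats and in H3K9 methylation, in lying closer to the nuclear lamina and in recombining more often. Many housekeeping genes lie on the centres, whereas large, rapidly evolving families such as F-box and C-type lectin genes are concentrated on arms.

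The sites that the study's motif searches listed within the regions named further on show the DNA concerned. All 16 such sites are printed, apart from those in regions named only for a gene family. Each runs 5′ to 3′ on the strand listed, with the site in capitals and up to 3 flanking bases in lower case. The coordinates are those of the merged region on WS180, and further genes that the study assigned to the region are given in parentheses. The first set, listed as not tissue-specific, comes from regions with peaks in all 3 tissues.
ddp-1, III:1859191-1860551, minus strand: gATTTTTCCGGAAATTTCCCAgta
dld-1, IV:14463471-14464722, minus strand: aggTTTTTATTGAGTTTTTTTTCaga
eelo-2, IV:17249491-17250332, minus strand: aaaTGCAAGCGCGCTCCATTGACGcag
eelo-2, IV:17249491-17250332, minus strand: cagCTGCTGGCGCACATCGCGAGagt
mdf-2 (and nduv-3), IV:2640588-2641610, minus strand: cgcTTGCTGGCGCGTTTCGTGATgtt
mrg-1 (and spcs-2), III:12874491-12874996, minus strand: gtgGTGTTTGCGTACTTTTTCGTgcg
scc-1 (and rpn-5), II:4697957-4698815, plus strand: caaATCGCGGTAAGACCCagg
sas-6 (and Y45F10D.7), IV:13788368-13789518, plus strand: ttgAGATGGCGCGCTCTATGGGACtac
smc-3 (and gly-9, mib-1), III:11290212-11290926, plus strand: gtcGCGCCCGCGAATTCTTCGCTttg
cyk-4 (and pdr-1), III:13770884-13771639, minus strand: gcaGTCATGTGCGCCCTATGGCAAgcg
The next set, listed as germline-specific, comes from regions that held peaks in germline libraries and in no larval library.
puf-4 (and slmp-1), IV:3211896-3212621, minus strand: gccGGGCCTCGAAGCGACtga
puf-3, IV:13511963-13512643, plus strand: aaaTAAAAAATCCAAAATTTCCCGCGCaaa
puf-6, II:13043293-13043810, minus strand: aacCATGCACCTTTAAAaa
puf-6, II:13043293-13043810, plus strand: gtaAGGTTTTGACGCGAAatt
msh-5 (and crld-1), IV:13154668-13154955, plus strand: cggTATGCGCCTTGTAGtta
The last, listed as intestine-specific, comes from a region with peaks in 4 intestinal libraries, in 1 germline library and in no somatic one.
pod-2 (and W09B6.5), II:1142965-1143772, minus strand: gaaAAGTGATAAAAaat
The letters GCGC or CGCG, which read the same on both strands and overlap in GCGCG, were searched within the listed sites. Of the 16 sites above, 10 held them, while those of ddp-1, dld-1, mrg-1, puf-4 and pod-2 and the minus-strand site of puf-6 did not. Over all listed sites they occurred in 41.5% of the 212 sites in arm regions of II to IV, against 38.5% of 327 sites in centre regions. Among sites the study listed as intestine-specific, 1 of 26 on arms held these letters, against 3 of 35 on centres. In the germline-specific lists the count was 16 of 36 sites on arms, against 28 of 69 on centres. These are matches to letters in sites that a motif search had already selected, and genome-wide shares were not computed here.

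Regions were sparser on arms. Arms held 227 regions per Mb, against 276 per Mb on centres, so that 45.5% of the regions of II to V lay on 50.5% of the length. The gap was wider for regions shared by at least 2 and by at least 10 libraries, but not for those shared by all 23. With peaks in at least 2 libraries there were 88.5 regions per Mb on arms and 117 on centres, and with peaks in at least 10 libraries 21.9 on arms and 33.1 on centres. Arm regions were narrower over the whole catalogue, with a median width of 218 bp and quartiles of 101 and 431 bp, against a median of 261 bp on centres. In regions from a single library the medians were 132 bp on arms and 159 bp on centres. With peaks in at least 10 libraries they were close, 818.5 and 830.5 bp. Regions of 1500 bp or more numbered 147 (1.91%) on arms and 327 (3.54%) on centres. Peaks from a single library made up 61.0% of arm regions, against 57.6% of centre regions. At the other end, 39 arm regions and 40 centre regions had a peak in all 23 libraries. Arm regions covered 7.79% of arm length, against 11.5% of centre length for centre regions.

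The 8 arms were far from uniform. The right arm of III held 125 regions per Mb with peaks in at least 2 libraries, close to the 134 per Mb of its own centre, and the left arm of IV held 115 per Mb, against 121 per Mb on the centre of IV. The right arm of V held 52.4 per Mb, against 102 per Mb on the centre of V. Values on the other 5 arms lay between these, at 78.6 and 110 per Mb on the left and right arms of II, 86.8 on the left arm of III, 83.5 on the right arm of IV and 77.6 on the left arm of V. The right arm of V also had the highest share of regions from a single library, 70.0%, against 54.8% on the right arm of III. For all 11 strains the right arm of V was the sparsest of the 8 arms when regions with peaks in at least 2 libraries of that strain were counted. The densest was the right arm of III in 9 strains, and the right arm of II in germline DPL-1 and germline LIN-35 from the pie-1 promoter.

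**Figure D1:**
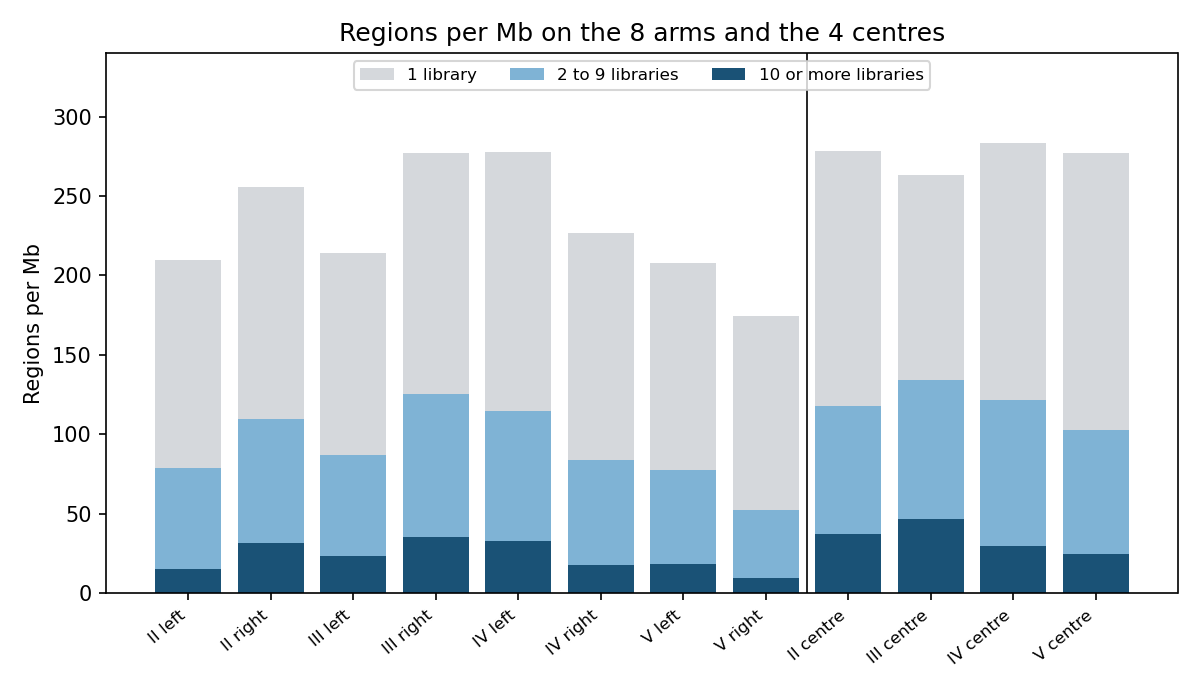
Regions per Mb on the 8 arms (left of the line) and the 4 centres (right of it), stacked by the number of libraries with a peak in the region. The right arm of V is lowest with 175 regions per Mb, and the left arm of IV and the right arm of III reach 278 and 277 per Mb, within the range of the centres (263 to 283).

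Along the arms, regions with peaks in at least 2 libraries numbered 102 per Mb in the first Mb outward from the inner boundary, and 90.1, 81.8, 82.4, 82.2 and 78.9 per Mb in the successive Mb after it. The outermost value rests on the left arm of V alone and on 0.900 Mb. Germline strains had 38.9 replicated regions per Mb (peaks in at least 2 libraries of 1 or more strains) in the first Mb of the arms and 38.1 on the centres. Somatic strains had 38 per Mb in that first Mb and 48.1 on the centres. In intestinal strains the values were 38.3 in the first Mb and 50.4 on the centres. Thus germline density was close to that of the centres at the inner boundary and lower further out, but this value was mostly EFL-1. Germline EFL-1 had 37.25 regions per Mb in the first Mb and 35.2 on the centres, and LIN-35 from pie-1 had 7 and 6.50. Germline DPL-1 (17.25 against 19.5) and LIN-35 from mex-5 (5.88 against 6.47) were below the centres. Every larval strain was below the centres in the first Mb. No test was made of this profile.

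**Figure D2:**
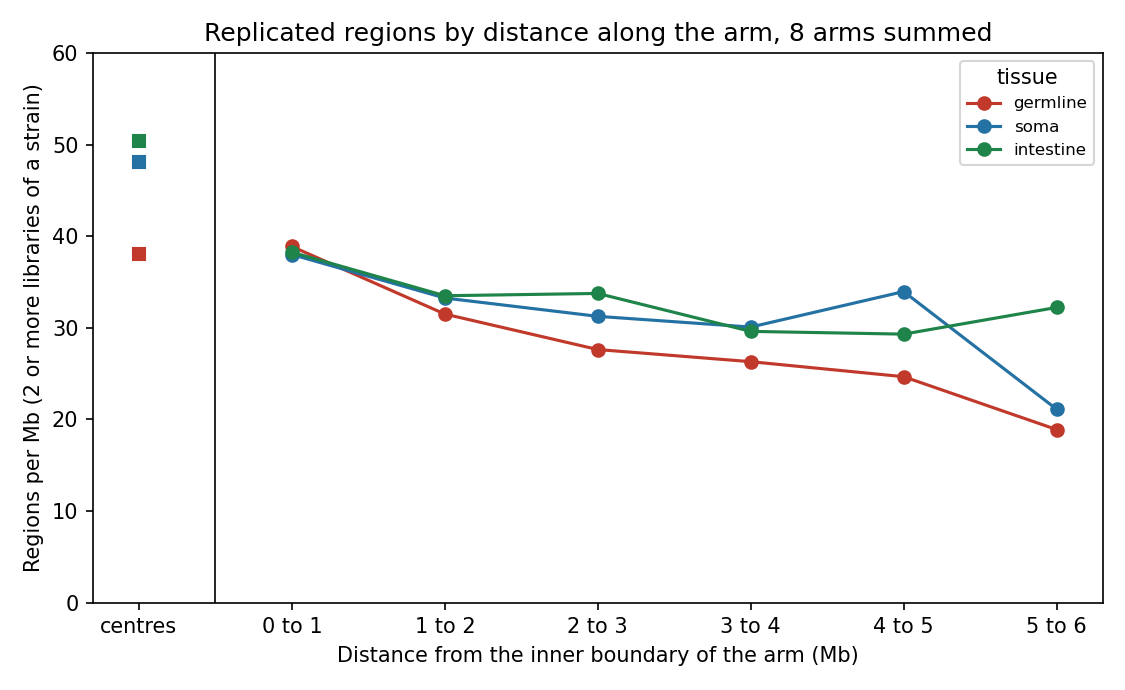
Regions per Mb with peaks in at least 2 libraries of 1 or more strains of a tissue, by distance in Mb from the inner boundary of the arm, with the 8 arms summed and the centres at the left (squares). Germline values are 38.9 per Mb in the first Mb and 24.7 in the fifth, and the last point covers 0.900 Mb of a single arm.

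The share of a library's peaks that lay on arms, out of its peaks on II to V, ranged from 31.2% to 49.9% with a median of 42.6%. It was below the 50.5% of length in all 23 libraries. Germline EFL-1 had 48.9% and 47.5% of its peaks on arms and germline DPL-1 41.2% and 42.6%. For germline LIN-35, the pie-1 line had 42.5% and 49.9% and the mex-5 line 45.1% and 38.3%. These 2 LIN-35 lines overlapped, and the replicates within each differed by over 6 points.

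Among larval strains, the shares were 42.8% and 47.3% for somatic EFL-1, 44.9% and 42.9% for somatic DPL-1, and 40.3% and 39.0% for somatic LIN-35. Intestinal EFL-1 had 41.9% and 40.4%, intestinal DPL-1 41.6% and 43.7%, and intestinal LIN-35 41.8% and 43.3%. The 3 libraries of intestinal HPL-2 had 39.6%, 46.9% and 31.2%, so that they spanned nearly the whole range of the series. Replicate 3 of HPL-2 stood apart also among its strongest peaks: 21.7% of its 500 peaks with the smallest q-values on all chromosomes that lay on II to V were on arms, against 37.0% to 48.3% in the other 22 libraries.

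**Figure D3:**
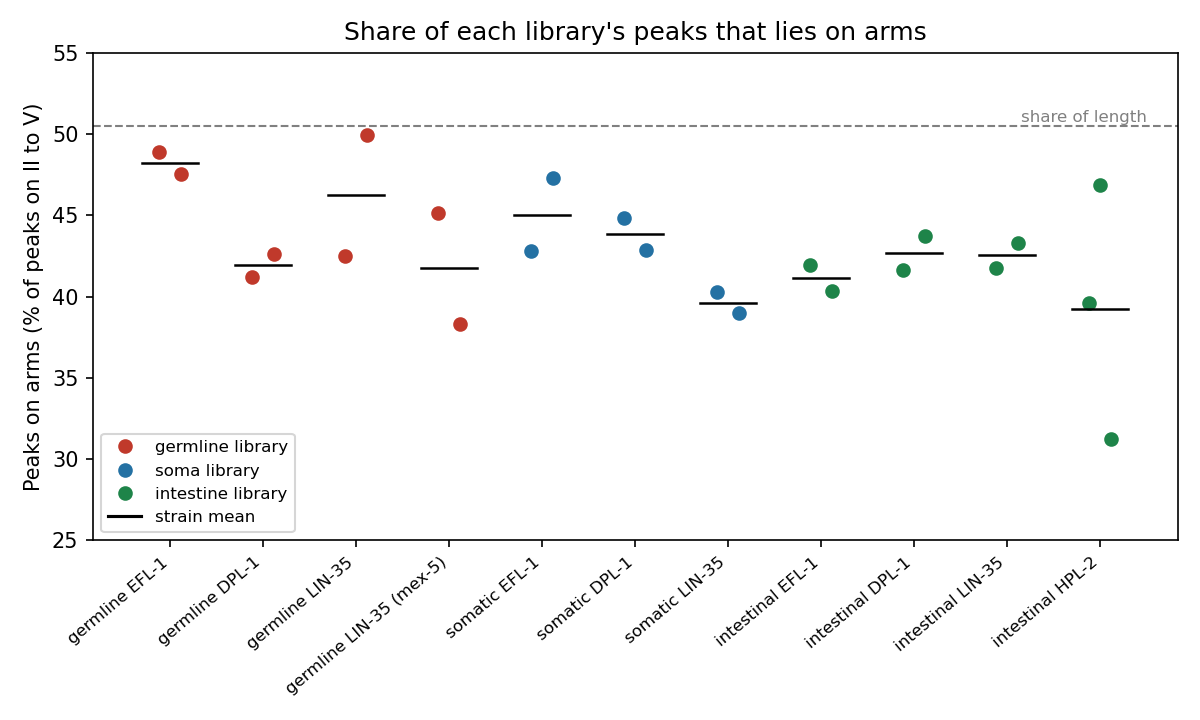
Percentage of each library's peaks on II to V that lies on arms (points, coloured by tissue), with the mean of each strain (horizontal lines) and the arms' share of length (dashed, 50.5%). All 23 libraries lie below the dashed line, and replicate 3 of intestinal HPL-2 is the lowest at 31.2%; the axis starts at 25%.

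To ask whether tissue or factor set the arm share, strain means were compared by exact permutation tests (two-sided), with Benjamini-Hochberg adjustment over the 8 tests made. Germline strains averaged 44.5% ± 3.22 (SD, n = 4) and larval strains 42.0% ± 2.14 (SD, n = 7), a difference of 2.50 points (exact permutation test, p = 0.155, adjusted p = 0.309). The 2 groups overlapped. Intestinal strains averaged 41.4% ± 1.60 (SD, n = 4) and somatic strains 42.8% ± 2.85 (SD, n = 3), a difference of -1.45 points (exact permutation test, p = 0.457, adjusted p = 0.476). The smallest p that this last design allows is 0.0286.

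LIN-35 strains averaged 42.5% ± 2.75 (SD, n = 4), against 43.8% ± 2.56 (SD, n = 6) for EFL-1 and DPL-1 strains (exact permutation test, p = 0.476, adjusted p = 0.476). Over libraries, intestinal HPL-2 averaged 39.2% ± 7.85 (SD, n = 3) and the other intestinal factors 42.1% ± 1.22 (SD, n = 6; exact permutation test, p = 0.417, adjusted p = 0.476). Without HPL-2 replicate 3 this difference was 1.13 points in the other direction. The HPL-2 libraries and 1 of the 6 other intestinal libraries, LIN-35 replicate 1 (41.8%), carry the same date in their labels. None of the 4 comparisons passed the test, and the values of the groups overlapped in each.

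Within each library, arm and centre regions were then compared by exact sign-flip permutation tests over the 11 strains (two-sided). The first measure was occupancy, the percentage of the arm or centre regions of the merged catalogue in which a library had a peak. It averaged 14.2% on arms and 15.5% on centres, a difference of -1.35 points ± 2.28 (SD over 11 strains; exact permutation test, p = 0.0820, adjusted p = 0.219), lower on arms in 8 of 11 strains. The test takes the strains as independent, but all shared the same arm and centre regions as denominators. Germline EFL-1 was the exception with both libraries higher on arms, 18.6% and 30.0% of arm regions against 15.9% and 27.0% of centre regions. The catalogue includes regions that only these libraries added. Per Mb, both had fewer peaks on arms than on centres (ratios of 0.939 and 0.888). Somatic LIN-35 had the lower values on arms in both libraries, 18.4% and 19.7% of arm regions against 22.3% and 25.3% of centre regions.

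A peak recurred in another library of its strain in 58.7% of cases on arms and 60.5% on centres (difference of -1.83 points ± 3.02, SD over 11 strains; exact permutation test, p = 0.0742, adjusted p = 0.219). Median peak width averaged 307 bp on arms and 316 bp on centres, and its log2 ratio was -0.05 (exact permutation test, p = 0.0156, adjusted p = 0.125). Peak strength, as the median of -log10 of the deposited q-value, averaged 5.03 on arms and 5.22 on centres (exact permutation test, p = 0.389, adjusted p = 0.476). No measure passed after adjustment, and the mean differences were small beside the range between strains, which for strength ran from -1.05 to 1.42.

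The outcome for occupancy depended on how deep each list was read. When each library was limited to its 500 peaks with the smallest q-values and regions were merged again, occupancy was 4.18 points higher on arms than on centres (exact permutation test, adjusted p = 0.0313). Strength likewise was 0.97 higher on arms in these lists, and 1.00 higher among peaks with q below 1e-05, neither past the threshold. The direction of the occupancy difference was thus not the same in the full lists and among the strongest peaks. The arm share of these 500 peaks was still at most 48.3% in any library, below the 50.5% of length. The p for occupancy is limited, because all strains again shared the same arm and centre regions as denominators. HPL-2 replicate 3, with 21.7% of these peaks on arms against 37.0% to 48.3% in the other libraries, also fed those denominators. The part of that library was not tested.

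Replicated regions, those with a peak in at least 2 libraries of a strain, gave a clearer picture of density. In all 11 strains there were fewer of them per Mb on arms, with ratios of arms over centres from 0.592 to 0.825 and a median of 0.703. The ratio was also below 1 in 11 of 11 strains on each of the 4 chromosomes, with medians of 0.811 on IV, 0.708 on III, 0.647 on II and 0.633 on V. This is a description of the merged catalogue, since gene density and mappable length of arms and centres were not measured here.

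In the germline, EFL-1 had replicated peaks in 989 arm regions (12.8% of arm regions), against 12.7% of centre regions and 11.5% of all 24318 regions of the series. DPL-1 had them in 450 (5.83%), against 7.05% of centre regions and 5.39% of all. LIN-35 from pie-1 had 166 (2.15%), against 2.35% of centre regions and 1.8% of all, and LIN-35 from mex-5 had 145 (1.88%), against 2.34% and 1.82%. On arms as elsewhere the germline catalogue was thus mostly EFL-1, with the LIN-35 regions a small number beside it. Germline EFL-1 was the only strain whose share of arm regions was not below its share of centre regions. These shares are of a catalogue that its own peaks helped to define. Per Mb it had fewer replicated regions on arms (ratio of 0.825).

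In L1 soma the order of the factors was different, with LIN-35 most frequent. Somatic EFL-1 had replicated peaks in 473 arm regions (6.13%), against 7.15% of centre regions and 6% of all. Somatic DPL-1 had 850 (11.02%), against 12.5% of centre regions and 11.6% of all. Somatic LIN-35 had 911 (11.8%), against 14.9% of centre regions and 13.2% of all.

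In the intestine, EFL-1 had 341 such arm regions (4.42%), against 5.37% of centre regions and 4.5% of all. DPL-1 had 761 (9.86%), against 11.3% of centre regions and 10% of all, and LIN-35 had 641 (8.31%), against 8.89% of centre regions and 7.94% of all. HPL-2 had 718 (9.31%), against 12.9% of centre regions and 11.1% of all. That strain had the lowest ratio per Mb, 0.592, and a region needed a peak in 2 of 3 libraries rather than in both of 2. With replicates 1 and 2 alone HPL-2 had 386 arm and 468 centre regions and the ratio was 0.809, within the range of the other strains. With replicate 1 left out there were 275 arm regions and the ratio was 0.716, and with replicate 2 left out 579 arm regions and 0.538. With q below 0.001 there were 399 arm regions and the ratio was 0.548.

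**Figure D4:**
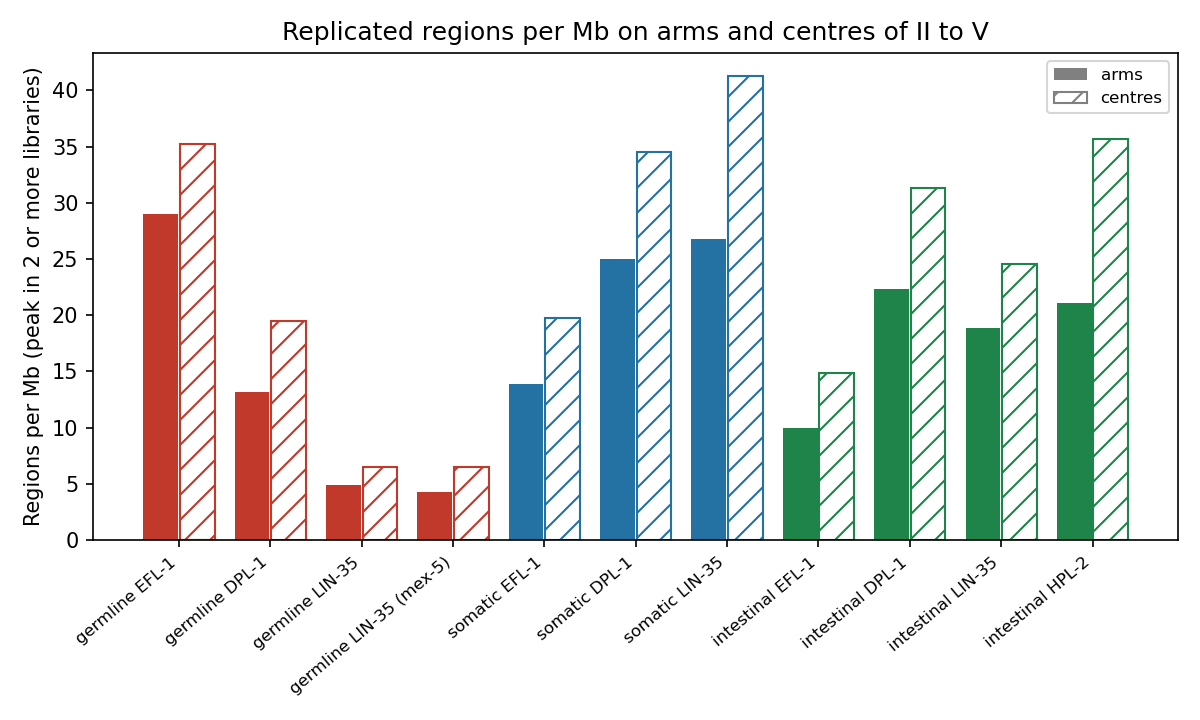
Regions per Mb with a peak in at least 2 libraries of a strain, on arms (filled bars) and centres (hatched bars), coloured by tissue as germline (red), soma (blue) and intestine (green). The arm bar is the lower of each pair in all 11 strains, from 4.26 against 6.47 per Mb for germline LIN-35 (mex-5) to 26.8 against 41.3 per Mb for somatic LIN-35.

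In the larval strains nearly all EFL-1 regions also held DPL-1, on arms as on centres, whereas in the germline many EFL-1 regions did not. Of intestinal EFL-1 regions, 98.5% of 341 on arms and 99.0% of 496 on centres also held intestinal DPL-1. The same share for somatic EFL-1 with DPL-1 was 96.6% of 473 on arms and 97.0% of 660 on centres. In the germline, where EFL-1 had more regions than DPL-1, 43.4% of EFL-1 regions on arms and 51.02% on centres held DPL-1, whereas 95.3% of DPL-1 regions on arms and 92.2% on centres held EFL-1. LIN-35 was present at 86.3% of somatic EFL-1 regions on arms and 88.3% on centres, and at 15.98% of germline EFL-1 regions on arms and 17.5% on centres.

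HPL-2 and LIN-35 overlapped in 436 replicated intestinal regions on arms, 60.7% of the 718 arm regions of HPL-2 and 68.0% of the 641 of LIN-35. On centres it was 589 regions, 49.5% of those of HPL-2 and 71.8% of those of LIN-35. Without HPL-2 replicate 1 the overlap was 224 regions on arms, and with q below 0.001 it was 236. The gap of 11.2 points in the share of HPL-2 regions did not hold in each library. In replicate 1, 76.4% of HPL-2 regions on arms and 75.04% on centres had an intestinal LIN-35 peak in any library, in replicate 2 the shares were 75.9% on arms and 81.5% on centres, and in replicate 3 they were 60.4% on arms and 50.4% on centres. With replicates 1 and 2 alone, the share of replicated HPL-2 regions that held LIN-35 was 76.2% on arms and 73.7% on centres.

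Tissue sets were formed from regions with a replicated peak in a strain of the tissue and no peak in any library of the other tissues. There were 332 germline-only regions on arms (4.30% of arm regions), against 344 on centres (3.73%) and 3.54% of all regions. Larval-only regions, absent from all 8 germline libraries, numbered 578 on arms (7.49%), against 816 on centres (8.84%) and 8.55% of all. Per Mb, arms over centres, the ratio was 0.947 for germline-only and 0.695 for larval-only regions. The germline-only count rested on the EFL-1 strain: leaving out either of its 2 libraries left 89 regions on arms, 129 on centres and a ratio of 0.677.

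Intestine-only regions numbered 181 on arms (2.35%), against 280 on centres (3.03%) and 2.67% of all, and 117 remained on arms without HPL-2 replicate 1. By number they were most on the arms of V, with 28 on the left (5.9 Mb) and 28 on the right (4.41 Mb). The shorter right arm of III (3.48 Mb) held 25, which is more per Mb. Soma-only regions numbered 71 on arms (0.920%), against 86 on centres (0.932%) and 0.938% of all. Leaving out either somatic LIN-35 library left 16 on arms and 5 on centres. Regions bound in all 3 tissues numbered 489 on arms (6.34%), against 703 on centres (7.62%) and 6.25% of all. Regions with replicated intestinal LIN-35 and HPL-2 and no EFL-1 peak in any library numbered 74 on arms (0.959%), against 100 on centres (1.08%) and 0.975% of all. They fell to 31 on arms without HPL-2 replicate 1 and to 33 without replicate 3.

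**Figure D5:**
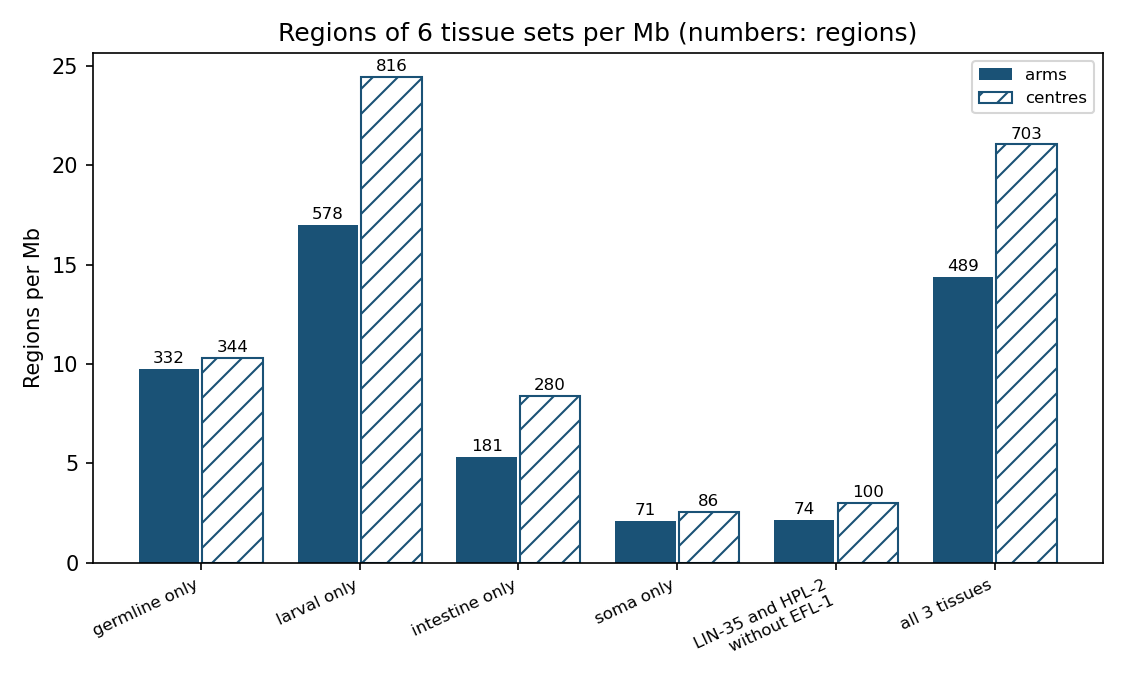
Regions per Mb of 6 tissue sets on arms (filled) and centres (hatched), with the number of regions above each bar. The germline-only pair is 9.75 per Mb on arms and 10.3 on centres, and the larval-only pair is 17.0 per Mb on arms and 24.4 on centres.

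Among the arm regions bound by the most libraries were regions next to tasp-1, ddp-1, cco-2 and dld-1. Genes were taken from the study's own assignment of sites on II to IV, which gave a gene for 482 of the 5720 arm regions of these chromosomes. That assignment covers the sites the study classed as germline-specific, soma-specific, intestine-specific or broadly bound. Genes beside the other arm regions were not looked up. The 8 leading regions, ranked by the number of libraries and then by median q-value, all had peaks in 23 of 23 libraries, as did 39 arm regions in all. The first was next to tasp-1, a homolog of the taspase protease, on the right arm of III (III:10758743-10759905). Its q-values ran from 5.92e-138 to 1.31e-13 in the 8 germline libraries with a median of 4.17e-36, from 3.55e-180 to 8.22e-81 in the 6 somatic ones, and from 1.18e-198 to 1.19e-07 in the 9 intestinal ones. The weakest of the intestinal values was HPL-2 replicate 2. For each factor the peak was thus called in every library, and the germline and larval q-values overlapped.

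Others of the 8 were next to ddp-1, which encodes a small protein of mitochondrial import, on the left arm of III (III:1859191-1860551, median q 5.24e-63), cco-2, a cytochrome c oxidase subunit, on the right arm of III (III:12904669-12905588, 1.53e-62), and dld-1, dihydrolipoamide dehydrogenase, on the right arm of IV (IV:14463471-14464722, 5.25e-61). The remaining 4 were next to F48A11.4 and Y54G11A.2 on II, next to eelo-2 on IV (whose site is printed above), and on the left arm of V (V:2600330-2601122). In all 8 the median q-value of the germline libraries was larger, that is weaker, than that of the somatic libraries, with germline medians between 4.17e-36 and 1.66e-07 and somatic medians between 2.47e-126 and 3.85e-87. These medians pool the factors, and LIN-35 makes up a larger part of the germline libraries than of the somatic ones. Read depth was not taken into account.

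The germline-only arm regions named here included 3 next to PUF genes, and other PUF genes (puf-5, puf-7 and puf-11) lay next to centre regions. PUF proteins bind RNA and repress translation, and several act in the C. elegans germline. The region next to puf-3 on the right arm of IV had peaks in 7 of 8 germline libraries, with q of 9.91e-45 and 4.03e-109 for EFL-1, 5.69e-15 and 1.07e-30 for DPL-1, 6.41e-06 and 0.00271 for LIN-35 from pie-1, and 0.000922 in 1 library of LIN-35 from mex-5. All 15 larval libraries lacked a peak there. A region next to puf-4 and slmp-1 on the left arm of IV (IV:3211896-3212621) had the same 7 libraries, with 1.39e-48 and 3.44e-98 for EFL-1. The region next to puf-6 on the right arm of II had peaks of EFL-1 (2.79e-19 and 1.25e-60) and DPL-1 (9.07e-06 and 5.9e-11) and none of LIN-35. In each of these, EFL-1 gave the smallest q-values, DPL-1 larger ones and LIN-35 the largest or none.

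Only 2 germline-only regions on arms, on the left arm of V (V:5717144-5718005) and the right arm of II (II:13521003-13522525), had peaks in all 8 germline libraries. The region next to msh-5, a MutS homolog needed for meiotic crossovers, and crld-1 on the right arm of IV had peaks in both EFL-1 libraries (8.24e-06 and 5.44e-11), in DPL-1 replicate 1 (0.000399) and in LIN-35 replicate 2 (0.00172). It had none in any larval library.

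The larval-only regions with the most libraries lay on V and on the right arm of IV. That at IV:15570307-15571225 had peaks in 5 of 6 somatic and 9 of 9 intestinal libraries, with q from 4.51e-33 to 0.00282 in soma and from 7.24e-32 to 0.00111 in intestine. The region at V:17537970-17538953 had 6 somatic and 8 intestinal libraries. None of the 5 leading larval-only regions had a gene in the assignments used. Those on V could have none, because genes of V were left out. The leading intestine-only region, next to F16G10.6 on the left arm of II (II:2378351-2379083), had peaks in 7 of 9 intestinal libraries. These were both LIN-35 libraries (9.14e-26 and 5.12e-11), all 3 HPL-2 libraries (2.23e-07, 0.000129 and 4.15e-47), EFL-1 replicate 2 (0.00102) and DPL-1 replicate 1 (1.41e-07). Next to cua-1, which encodes a copper-transporting ATPase, on the right arm of III (III:13455694-13456087), was the leading soma-only region with peaks in all 6 somatic libraries and q from 4.79e-09 to 0.00419.

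Of the regions with LIN-35 and HPL-2 but no EFL-1, the 5 leading ones were all on IV. The broadest were 5472 bp next to pnp-1, purine nucleoside phosphorylase, on the left arm (IV:291746-297217) and 5873 bp on the right arm (IV:16165797-16171669). At pnp-1 the q-values were 1.5e-280 and 1.6e-17 for intestinal LIN-35, and 8.99e-153, 5.53e-10 and 1.82e-08 for HPL-2. At the right-arm region they were 1.47e-280 and 2.86e-24 for LIN-35, and 3.79e-179, 2.86e-13 and 8.84e-06 for HPL-2. These broad regions were not without other signal, since intestinal DPL-1 replicate 1 had peaks in both (4.77e-19 and 1.82e-40) and somatic LIN-35 had peaks in both libraries at each.

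Gene lists were chosen for the tissues and factors of the study. They held 27 genes assigned to arm regions of II to IV and 64 assigned to centre regions. Thus 29.7% of the list genes with an assigned region were on arms, against 39.1% of all genes with one (642 on arms and 1000 on centres). The 27 include pie-1, mex-5 and rec-8 at transgene loci, without which the share was 27.3%. For mitosis and chromosome segregation it was 9 of 48 genes on arms and 14 on centres (39.1% on arms, as over all genes), for SynMuv and chromatin genes 4 of 39 on arms and 10 on centres, and for DNA replication 2 of 32 on arms and 10 on centres. No eggshell or fertilization gene was assigned to an arm region of II to IV, and 7 were assigned to centre regions. The intestinal metabolism list had 5 of 51 genes on arms and 5 on centres, and the meiosis list 2 of 30 on arms and 2 on centres. Oocyte and maternal regulators had 4 of 34 on arms and 12 on centres, and germline small RNA and P granule genes 1 of 40 on arms and 4 on centres. With so few members per list, no order among the lists is read from these counts. How many genes of each list lie on arms and on centres was not counted.

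Mitosis genes next to arm regions had peaks in a median of 19 libraries, against 16 for all arm regions with a gene. The region of mdf-2, a Mad2 homolog of the spindle checkpoint, had 22 libraries, that of csc-1, a chromosomal passenger protein, had 21, and those of sas-6, needed for centriole duplication, and scc-1, a cohesin subunit, had 20 each. For mdf-2 the q-values ran from 3.03e-49 to 0.00877 in 7 germline libraries, from 1.18e-163 to 2.41e-27 in 6 somatic ones, and from 8.93e-130 to 0.000796 in 9 intestinal ones. The kinesin gene klp-7 (III:10807082-10808427) went the other way: germline q-values ran from 5.07e-154 to 0.00314 in 7 libraries, against 4.51e-11 to 3.38e-05 in 4 somatic libraries. The centralspindlin gene cyk-4 had peaks in 2 germline, 6 somatic and 8 intestinal libraries.

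The 4 chromatin genes next to arm regions had peaks in 19 or more of 23 libraries. These were lin-54 (23 libraries), a DNA-binding partner of E2F in the DRM complex, mes-2 (22), the H3K27 methyltransferase, mrg-1 (21), a chromodomain protein, and lem-2 (19), a protein of the inner nuclear membrane. The region of lin-54 was also assigned to rpl-12, and that of mrg-1 to spcs-2. At mes-2 (II:14383490-14384036) the q-values ran from 5.68e-78 to 0.00217 in 7 germline libraries, from 5.85e-179 to 6.83e-57 in somatic ones, and were 4.19e-11, 0.000274 and 0.00114 for HPL-2. The weakest larval values there were those of HPL-2. For replication, mcm-2, a helicase subunit (II:12006314-12007130), had peaks in 22 libraries and rfc-2, a clamp loader subunit, in 14. The Argonaute gene wago-4 had peaks in 14 libraries, 5 of them germline.

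The intestinal metabolism genes assigned to arm regions had peaks in fewer libraries, with a median of 7. The part of the site classes in this lower number was not tested. Peaks next to fat-2, a fatty acid desaturase, were in 5 somatic, 6 intestinal and 0 germline libraries. Those next to pod-2, acetyl-CoA carboxylase, were in 4 intestinal libraries (DPL-1 replicate 1, both of LIN-35 and HPL-2 replicate 1) and in germline EFL-1 replicate 3. The fatty acid elongase gene elo-2 had peaks in 5 intestinal, 1 somatic and 1 germline library.

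Few genes of large families had an assigned region. Of 236 F-box genes that the RefSeq table places on II to IV, 8 were assigned to an arm region and 0 to a centre region. Of 442 chemoreceptor genes on II to IV, 0 were assigned to an arm region and 1 to a centre region. Of 127 C-type lectins it was 1 on arms and 2 on centres. A gene without an assignment may still lie beside a region that is outside the study's classes. Collagens and detoxification enzymes each had 3 genes on arms and 3 on centres, MATH and BTB proteins 2 and 2, nuclear hormone receptors 2 on arms and 4 on centres, and histones 1 on arms (his-72) and 0 on centres. Over the families 20 genes were on arms and 15 on centres, 57.1% on arms, against 39.1% of all genes with a region, and how many family members lie on arms was not counted. Some of these regions had a further gene as a candidate, such as csc-1 beside fbxc-23 (21 libraries), hex-3 beside fbxb-85 (23 libraries) and tbck-1 beside fbxb-88 (18 libraries). The region of fbxc-50 and C17F4.2 on the left arm of II had peaks in 5 germline and 0 larval libraries, and that of fbxa-158 had peaks in 2 intestinal libraries and no other.

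Of the transgene loci whose position was found, those of pie-1, unc-119, mex-5 and efl-1 lie on arms and were kept out of the named regions. They accounted for 14 arm regions, of which 10 had peaks in 2 or more libraries. The q-value at unc-119 reached 8.25e-304, the smallest among the named and transgene regions. Peaks from the transgene copy and from the native locus cannot be told apart there. The transgenes also carry hpl-2 and the ges-1 promoter. No position of these genes was found in the study's site assignments, so regions at them were not left out.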

How the data were processed

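Chromatin of whole animals was immunoprecipitated with an antibody to GFP and sequenced. The series held 48 samples, 22 of them input DNA, and the 23 peak lists of anti-GFP libraries were used. PeakSeq was run by the authors on each library with input as background (WormBase WS180), and they deposited the start, end and q-value of each peak, with q-values up to 0.01. In 3 libraries the runs of 1 replicate had been combined. No source used here names the aligner. Lists held 558 to 7556 peaks (median 3394), and read depth was not used here, so the list length is the only measure of depth given.

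All deposited peaks entered. They were merged with Python 3.11.15 (pandas 2.3.3, numpy 2.4.6; plots with matplotlib 3.10.9), which matched bedtools 2.31.1 in 24318 of 24318 regions. Tests were exact permutation tests over strains or libraries, two-sided, adjusted over 8 tests. On simulated libraries that differed by 10 points between germline and larval strains, with an SD of 3 points between libraries, 200 of 200 runs were called, and 6 of 200 with no difference. A difference of the size observed, 2.50 points, was not simulated, so the power to detect it is not known. The study describes its replicates as biological, and those of every strain but HPL-2 carry different dates in their labels. The 3 HPL-2 libraries carry the same date, which is also that of intestinal LIN-35 replicate 1. No input of HPL-2 replicate 3 was among the samples, so which input its peaks were called against is not known.

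Regions, gene lists and tests were chosen with earlier results of these data known. Named were the first 8 arm regions by number of libraries, the first 5 of each tissue set (ties by median q-value) and up to 8 genes per list. Transgene loci were left out with 5000 bp flanks, except hpl-2 and ges-1, whose positions were not found. Genes came from the study's site table, whose starts lay within 50 bp of a deposited peak start for 97.5%, 98.7% and 96.7% of sites on II, III and IV but for 31.1% on V, so genes of V were left out. Of 1680 entries with a gene on II to IV, 1529 had a sequence name found in a RefSeq table (WBcel235), used for names and for chromosomes of gene families. Motif sites came from a supplementary table of the study. Alternatives were stricter q-values, the 500 strongest peaks, boundaries moved by 0.5 Mb, chromosome ends or transgene loci left out, another merging overlap, libraries left out in turn, libraries as units and the replicate number as a block. Tissue sets without each library or with q below 0.001 were added after seeing the data.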

Additional observations from a re-analysis of the deposited data

Results flagged for a closer look

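Replicate 3 of intestinal HPL-2 had an arm share of 31.2%, against 39.6% to 46.9% in the other 8 intestinal libraries, and its distance from the nearest of them was 0.535 of the whole range. It is also the only library with no input of its own strain and replicate among the samples, and it is not among the HPL-2 replicates in the study's list of libraries used. The part of these in its value was not tested. It was the only library to stand apart in this way among 30 sets of values examined for arm share, recurrence, width, occupancy and strength, where chance would mark about 1 in 20.

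Germline EFL-1 was the only strain with occupancy higher on arms than on centres in both libraries, while 7 strains had lower occupancy on arms in both. The difference in arms minus centres between germline EFL-1 and these strains, which was not tested, was 7.62 points against somatic LIN-35, 5.18 against intestinal LIN-35, 4.79 against intestinal DPL-1, 4.29 against germline DPL-1, 4.01 against intestinal EFL-1, 3.58 against somatic DPL-1 and 3.21 against germline LIN-35 from mex-5. Of the arm regions found in a single library, germline EFL-1 replicates 2 and 3 contributed 7.80% and 17.8%. On centres it was 4.31% and 12.8%. Such regions entered the catalogue only through this strain, so they raise its occupancy and lower that of the other strains. Per Mb, both libraries had fewer peaks on arms than on centres (ratios of 0.939 and 0.888).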

How the results depend on the processing

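Of 258 alternative values of the 8 comparisons, 246 kept their direction and their side of the threshold, 11 reversed, 1 of them with an adjusted p under the threshold, and 1 passed the threshold in the same direction. With the 500 strongest peaks, germline minus larval strains was -1.35 points, LIN-35 minus EFL-1 and DPL-1 0.12 points, occupancy 4.18 points (adjusted p = 0.0313, exact permutation test), recurrence 2.24 points, the log2 width ratio 0.0038 and strength 0.97. Among peaks with q below 1e-05, recurrence was 0.0463 points, width 0.0074 and strength 1.00, and with q below 0.001 strength was 0.24. The log2 width ratio was -0.0542 (adjusted p = 0.0369, permutation test) with libraries as units. The causes were not tested, and the occupancy differences of the strains were not independent, as said above. Leaving out single libraries, HPL-2 minus the other intestinal factors ran from -6.72 to 1.13 points, reversing without HPL-2 replicate 3. Germline minus larval strains ran from 1.58 (without germline LIN-35 replicate 3) to 3.43, intestine minus soma from -2.41 (without HPL-2 replicate 2) to -0.44 (without HPL-2 replicate 3), LIN-35 minus EFL-1 and DPL-1 from -2.21 (without germline LIN-35 replicate 3) to -0.35 (without germline LIN-35 replicate 2), occupancy from -1.90 to -0.87 (without germline EFL-1 replicate 3), strength from -0.30 (without somatic EFL-1 replicate 1) to -0.07 (without somatic EFL-1 replicate 2), recurrence from -2.33 to -1.28 and width from -0.06 to -0.05, with no adjusted p under the threshold. Without germline LIN-35 (mex-5) replicate 1, germline minus larval was 1.65 and LIN-35 minus EFL-1 and DPL-1 -2.13, which was -0.43 without mex-5 replicate 2. Intestine minus soma was -2.20 without somatic EFL-1 replicate 1 and -0.70 without replicate 2. Strength was -0.09 without somatic DPL-1 replicate 1 and -0.29 without replicate 2.

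Replicate numbers in general do not mark a shared date in the labels, but intestinal LIN-35 replicate 1 and the HPL-2 libraries share one. Among 27 pairs of strains the correlation of same-numbered libraries exceeded 0.1 in 4, and 3 of these were intestinal: LIN-35 with HPL-2 (0.408), DPL-1 with LIN-35 (0.341) and DPL-1 with HPL-2 (0.262). With the replicate block the differences were 3.11, -0.28, -1.23 and -1.59 points, with no call changed. At q below 0.001, intestine-only regions on arms numbered 95 and those with LIN-35 and HPL-2 but no EFL-1 31. Input libraries held no peak lists here, and short lists, such as the 558 peaks of germline LIN-35 (mex-5) replicate 2, limit what could recur.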
